A study of Sus scrofa with 12 samples.

Results

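The integrin and laminin genes are the 34 genes whose symbols in the deposited tables name an integrin alpha subunit (15 genes), an integrin beta subunit (8 genes) or a laminin alpha, beta or gamma chain (11 genes), out of 24358 genes measured. The rule for a member is its symbol and not its level or change. It leaves out ITGA2B, the platelet alpha subunit, and no gene was found under the symbols ITGAD, ITGAX or LAMA2. Shares of subunits and chains are over the members only. Integrins are receptors made of an alpha and a beta subunit that span the cell membrane, bind the extracellular matrix or other cells on the outside and hold the actin cytoskeleton through adaptor proteins on the inside. Laminins are matrix proteins of the basement membrane, each built from an alpha, a beta and a gamma chain, and they are the main ligands of integrins that pair alpha 6 with beta 1 or beta 4. In early embryos and in pluripotent stem cells the laminin-binding integrins hold the cells to their substrate, which is why laminin and laminin-rich Matrigel are used as culture surfaces.

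RNA-Seq was made on 12 libraries of pig induced pluripotent stem cells derived from pericytes (PC-iPS), with 3 libraries in each of 4 groups. WT PC-iPS carried no reporter. Knock-in positive cells were PC-iPS in which tdTomato and a puromycin resistance gene had been inserted at NANOG, a gene with a copy on chromosome 1 and on chromosome 5. The Activin A and SB431542 groups were, by the study's description, such knock-in cells treated with Activin A, a ligand of the TGF-β family, or with SB431542, an inhibitor of the receptors that carry the Activin signal. The labels of all 12 samples carry 1 shared protocol text that names the LCDMV culture system, and the feeder cells were removed by plating before RNA extraction. Doses are not in the labels of the sequenced samples, and the study describes its Activin A and SB431542 treatments in a medium without LIF, so the medium of the treated libraries is uncertain. The study ran its cytokine screen on Matrigel without feeder cells, and its text does not state the culture surface of the sequenced treated cells. The knock-in lines were drug-selected pools and not clones, so that a line can hold cells with different insertions or with none. The study also describes picking of colonies and a sort for tdTomato, and the labels do not say whether the sequenced cells were sorted. The study names 3 such lines, numbered like the knock-in libraries. The labels do not say that a numbered library treated with Activin A or SB431542 came from the line of that number, nor that the WT libraries came from separate cultures, so p-values measure only the spread between these libraries.

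Values are FPKM, which scale the reads of a gene to its length and to the size of the library, and which can be compared between genes because of the scaling by length. The WT and knock-in positive libraries are in one table and the treated libraries in another, so tests stay within a table and levels across tables are only set side by side. Changes are on the log2(FPKM + 1) scale, which understates the change of weakly expressed genes. The summed FPKM per library ran from 364241 to 390320 and 15339 to 15827 genes were above 0, while read depth is unknown here. NANOG stood at 9.71 to 27.6 FPKM in WT PC-iPS and 52.0 to 101 FPKM in knock-in positive cells, and at 109 to 195 FPKM with Activin A and 11.8 to 27.2 FPKM with SB431542, without overlap in either pair. Mitochondrial genes took 13.9 to 16.4% of FPKM in the WT libraries and 9.43 to 11.5% in the other 9. In bulk RNA, fewer cells of a type and less RNA per cell cannot be told apart.

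Over the 12 libraries, 7 of the 34 genes had a mean of at least 10 FPKM, 11 a mean from 1 to under 10 FPKM, 8 a mean from 0.1 to under 1 FPKM and 8 a mean under 0.1 FPKM. All 34 together took 0.0628 to 0.107% of the summed FPKM of a library. The 8 lowest were ITGA1, ITGA3, ITGA7, ITGA8, ITGB6, ITGB7, LAMA3 and LAMB4. They did not reach 0.1 FPKM in 3 of the 6 libraries of either table, so 26 of the 34 genes entered each test, against 14014 and 13999 of all 24358 genes. A total of 9 genes were listed at 0 in at least 1 library. ITGA7, a laminin-binding subunit best known from muscle, reached 0.513 FPKM in WT library 2 and at most 0.0324 FPKM in the other 11 libraries.

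**Figure D1:**
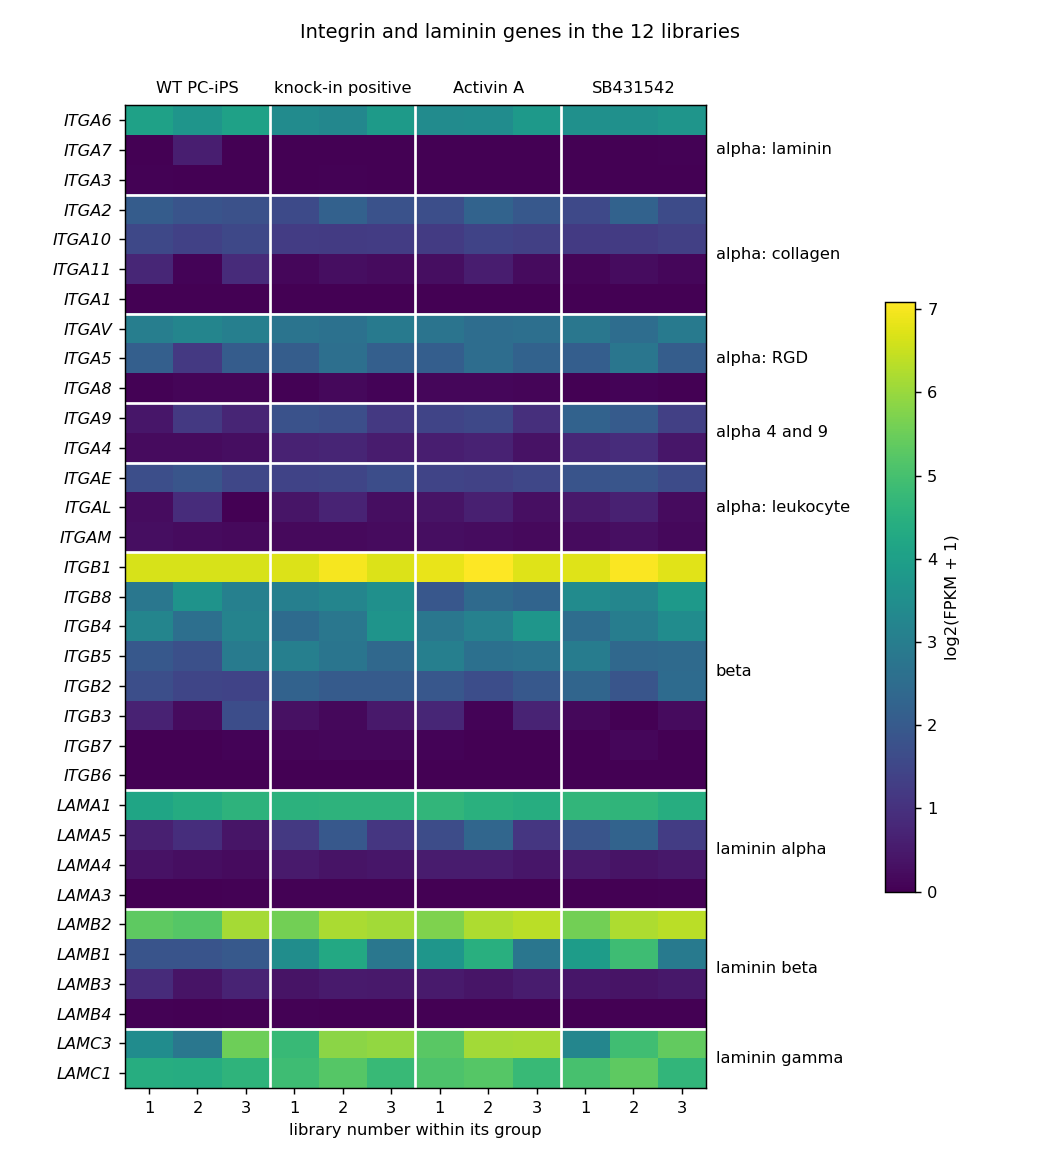
Level of 33 of the 34 integrin and laminin genes, in rows grouped by role, in each of the 12 libraries, in columns grouped by condition; color gives log2(FPKM + 1). ITGB1 was the brightest row in every library, LAMB2, LAMC1, LAMC3 and LAMA1 were the brightest laminin rows on average, and 8 rows had a mean under 0.1 FPKM.

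Laminin alpha chains carry the integrin-binding end of the molecule, and among those found by symbol LAMA1 was the main one. LAMA1 (ENSSSCG00000034767; Sscrofa11.1 chr6:100332843-100468457) is the alpha chain of laminin-111, the form abundant in Matrigel and in the earliest embryonic basement membranes. It measured 17.1, 19.4 and 23.1 FPKM in WT libraries 1 to 3, and 22.6, 23.1 and 23.0 FPKM in knock-in positive libraries 1 to 3. With Activin A it measured 24.3, 21.4 and 20.2 FPKM, and with SB431542 it measured 24.2, 24.0 and 20.2 FPKM. The 4 groups overlapped, and LAMA1 made up 82.6 to 97.9% of the FPKM of the alpha chain genes found (LAMA1, LAMA3, LAMA4 and LAMA5). LAMA2 was not found by symbol, so its level is unknown here and is not in this share. LAMA5, the alpha chain of laminin-511 and the ligand on which human pluripotent stem cells attach, was lower, at 0.318 to 4.06 FPKM over the 12 libraries. LAMA4, an alpha chain of endothelium and mesenchyme, lay between 0.154 and 0.461 FPKM, and LAMA3, the alpha chain of epidermal laminin-332, did not exceed 0.0391 FPKM.

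Among the beta chains LAMB2 was the main one and LAMB1 the variable one. LAMB2 (ENSSSCG00000011377; chr13:31738282-31750623), the beta chain of neuromuscular and kidney basement membranes, measured 39.1, 36.0 and 69.4 FPKM in WT, 47.1, 71.4 and 68.1 FPKM in knock-in positive, 51.9, 72.8 and 81.2 FPKM in Activin A and 47.1, 73.8 and 80.1 FPKM in SB431542 libraries 1 to 3. It gave 71.9 to 95.1% of the beta chain FPKM. LAMB1, the beta chain of laminin-111 and laminin-511, gave 4.06 to 6.58% of the beta chain FPKM in the WT libraries and 6.75 to 27.8% in the other 9. LAMB3, the beta chain of laminin-332, lay between 0.286 and 0.834 FPKM.

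Of the gamma chains, LAMC1, the common one, was found together with LAMC3, a gamma chain of more restricted tissues. The ratio of LAMC3 to LAMC1 was 0.925, 1.57 and 2.32 in knock-in positive libraries 1 to 3, 1.11, 1.87 and 2.62 with Activin A, and 0.271, 0.752 and 1.67 with SB431542. In WT libraries 1 to 3 it was 0.485, 0.298 and 1.91, so that LAMC3 exceeded LAMC1 in the third WT library and not in the first 2.

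In the RefSeq annotation of Sscrofa11.1 the 34 genes lie on 12 chromosomes, 6 of them on chromosome 9. Some members are neighbours with no other protein-coding gene between them but differ in level. LAMB1 (mean 10.9 FPKM over the 12 libraries) lies 30.6 kb from LAMB4 (mean 0.00907 FPKM). ITGA2 (mean 2.73 FPKM) lies 26.3 kb from ITGA1 (mean 0.00244 FPKM).

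Among the integrin beta subunits ITGB1, the partner of most alpha subunits, stood far above the rest. ITGB1 (ENSSSCG00000011101; chr10:56078393-56130608) gave 77.0 to 87.4% of the beta subunit FPKM. It measured 99.2, 101 and 100 FPKM in WT libraries 1 to 3 and 104, 127 and 103 FPKM in knock-in positive libraries. With Activin A it measured 115, 135 and 106 FPKM and with SB431542 107, 132 and 109 FPKM, which made it the least variable of the abundant members, with a highest value 1.36 times the lowest. ITGB8, ITGB4 and ITGB5 followed at 2.29 to 13.3 FPKM, and their order differed between groups. ITGB8 pairs with alpha V and binds latent TGF-β, ITGB4 pairs with alpha 6 in hemidesmosomes, and ITGB5 pairs with alpha V as a vitronectin receptor. ITGB2, the beta subunit of leukocytes, lay between 1.69 and 4.59 FPKM, while the list of 8 leukocyte genes summed to 1.99 to 5.79 FPKM in WT libraries and 2.43 to 3.18 FPKM in the other 9. Of that list PTPRC, the common leukocyte antigen, did not exceed 0.00621 FPKM and CD3E was at 0 in every library, while LCP1 (0.231 to 3.59 FPKM) and CD68 (0.549 to 1.57 FPKM) were the highest. ITGB3, which pairs with alpha V or the platelet alpha subunit, lay between 0.0152 and 2.22 FPKM.

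Among the alpha subunits ITGA6, the laminin receptor subunit, was highest in every library. ITGAV, which binds the RGD motif of fibronectin and vitronectin, was next, except in library 2 of the Activin A and SB431542 groups, where ITGA5 was above it (4.80 against 4.76 FPKM and 5.84 against 4.83 FPKM). ITGA6 (ENSSSCG00000015955; chr15:78504108-78591779) gave 29.4 to 46.1% of the alpha subunit FPKM and ITGAV (ENSSSCG00000016027; chr15:91604666-91711843) gave 14.2 to 26.6%. ITGA6 measured 15.6, 11.9 and 15.8 FPKM in WT and 9.64, 8.72 and 13.5 FPKM in knock-in positive libraries 1 to 3. With Activin A it measured 9.60, 9.87 and 13.0 FPKM and with SB431542 10.8, 10.7 and 12.03 FPKM. The other laminin-binding subunits, ITGA3 and ITGA7, were under the filter, so ITGA6 held nearly all laminin-type alpha signal. The fibronectin receptor subunit ITGA5 lay between 1.26 and 5.84 FPKM, with its lowest value in WT library 2. Of the collagen receptor subunits, ITGA2 lay between 1.96 and 3.78 FPKM and ITGA10 between 1.29 and 1.92 FPKM. ITGAE, known from epithelial lymphocytes as the receptor of E-cadherin, lay between 1.64 and 2.63 FPKM.

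**Figure D2:**
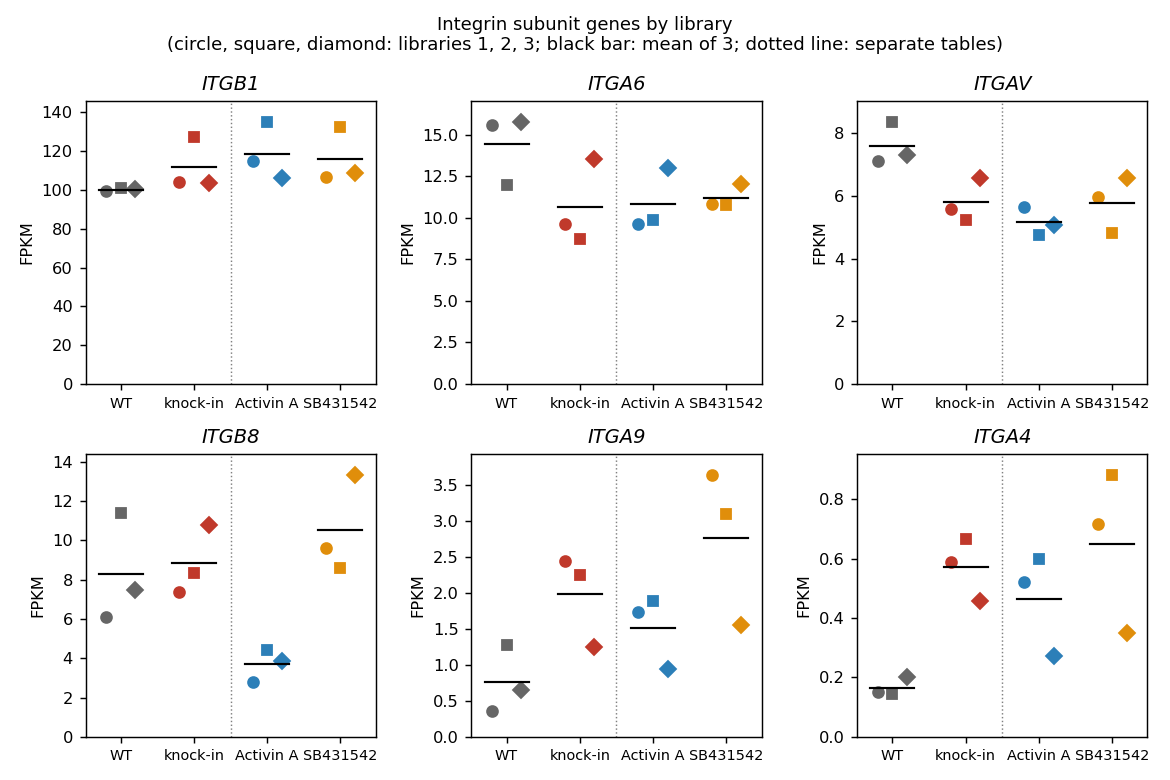
FPKM of 6 integrin subunit genes by group; each symbol is a library, with circle, square and diamond for libraries 1, 2 and 3, the black bar is the mean of 3, and the dotted line separates libraries from separate tables. ITGB1 stayed between 99.2 and 135 FPKM, ITGB8 was lower in each Activin A library (2.78 to 4.43 FPKM) than in each SB431542 library (8.61 to 13.3 FPKM), and ITGA4 was lower in each WT library than in each knock-in positive library.

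The comparison of knock-in positive with WT PC-iPS cells asks how the reporter lines differ from the cells they were made from. LAMB1 was the single member called higher. On the log2(FPKM + 1) scale the largest differences were those of the laminin chains LAMB1 and LAMC3, followed by LAMA5 and ITGA9 at 0.77 each. The ratios of the means had another order, 4.28 for LAMB1, 3.44 for ITGA4, 3.03 for LAMA5, 2.61 for ITGA9 and 2.37 for LAMC3. For ITGB3 and ITGA11 these ratios were 0.248 and 0.286, but their groups overlapped (limma adjusted p = 0.32 and 0.26). ITGB3 measured 0.612, 0.152 and 2.22 FPKM in WT and 0.236, 0.104 and 0.401 FPKM in knock-in positive libraries. ITGA11 measured 0.691, 0.0565 and 0.824 FPKM in WT and 0.0894, 0.210 and 0.150 FPKM in knock-in positive libraries. Calls needed an adjusted p no higher than 0.05 and a log2 fold change of 1 or more in size. By this rule 1 of 26 tested members was called higher and 0 lower, while 1.61% of all 14014 tested genes were called higher and 0.706% lower (2.31% in all). The median log2 fold change was 0.13 over the members and -0.0014 over all genes tested, and 16 of 26 members were above 0, against 49.8% of all genes. At an unadjusted p under 0.05, limma gave 8 of 26 members, against 28.6% of all genes.

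LAMB1 (ENSSSCG00000015444; chr9:107670120-107747242) measured 2.60, 2.55 and 2.97 FPKM in WT libraries 1 to 3 and 10.2, 18.5 and 6.02 FPKM in knock-in positive libraries 1 to 3. All knock-in positive libraries were above all WT libraries, and within the knock-in positive group library 2 was the highest and library 3 the lowest. The log2 fold change was 1.64 ± 0.34 (SE, n = 3 against 3), with a 95% interval of 0.86 to 2.42 and a limma adjusted p of 0.035. The fold change kept its direction without each library in turn (1.26 to 2.00), but the call was lost in 4 of these 6 fits. It was also lost with no filter on low values (limma adjusted p = 0.067) and with the replicate number as a block (limma adjusted p = 0.060). The limma adjusted p was 0.093 without WT library 1, 0.083 without WT library 2, 0.11 without knock-in positive library 1 and 0.065 without knock-in positive library 2.

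Some markers of other cell types were also higher in the knock-in positive libraries, and a few genes carried the sums of their lists. The list of 10 trophectoderm and epithelium genes summed to 9.54 to 17.0 FPKM in WT and 62.6 to 505 FPKM in knock-in positive libraries, 1 of its 7 tested genes was called higher (the keratin gene KRT8, which made up 70.8 to 84.6% of the sum in knock-in positive libraries), CDX2 was at 0 in every library and KRT7 did not exceed 0.0196 FPKM. Without KRT8 this list summed to 5.91 to 9.49 FPKM in WT and 18.3 to 77.8 FPKM in knock-in positive libraries, without overlap. Of its 7 tested genes 6 had a fold change above 0, and the median log2 fold change, KRT8 included, was 1.55. KRT8 stood at 96.7, 428 and 44.3 FPKM in knock-in positive libraries 1 to 3, the same order as LAMB1. The list of 11 pericyte and mural genes summed to 44.5 to 57.4 FPKM in WT and 356 to 511 FPKM in knock-in positive libraries, with 3 of 10 tested genes called higher (TAGLN, ACTA2 and PDGFRB) and no gene under 0.1 FPKM throughout. TAGLN alone made up 83.8 to 89.4% of this sum in knock-in positive libraries, and without it the list summed to 29.4 to 33.2 FPKM in WT and 54.3 to 57.7 FPKM in knock-in positive libraries. The median log2 fold change over the 10 tested genes of the list, TAGLN included, was 0.32. The list of 10 fibroblast genes summed to 10.7 to 18.7 FPKM and 27.7 to 51.9 FPKM, with 1 of 7 tested genes called higher (DCN) and FAP at 0 in every library. COL1A1 of this list was at 0.838 to 1.46 FPKM in WT and 0.345 to 0.782 FPKM in knock-in positive libraries, and 5 of the 7 tested genes had a fold change above 0. The 9 measured primitive endoderm genes, a lineage that secretes laminin, summed to 290 to 383 FPKM in WT and 329 to 369 FPKM in knock-in positive libraries, of which SPARC made up 94.7 to 98.04%. Without SPARC they summed to 6.76 to 9.33 FPKM and 13.3 to 19.5 FPKM, mostly GATA6 (6.32 to 8.98 FPKM and 12.5 to 18.8 FPKM). None of the 4 tested genes of this list was called by limma (GATA6 had an adjusted p of 0.029 but fell just short of the fold threshold), GATA4 and SOX17 were at 0 in all libraries of both groups, and AFP did not exceed 0.0313 FPKM. The part of these cells in the LAMB1 difference was not tested.

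The other chains of laminin-111 and laminin-511 were not called. LAMC1 (ENSSSCG00000015555; chr9:124283668-124405967) measured 20.3, 20.03 and 23.5 FPKM in WT and 28.8, 36.0 and 26.2 FPKM in knock-in positive libraries. The groups did not overlap, with a log2 fold change of 0.48 ± 0.14 (95% interval 0.15 to 0.81, limma adjusted p = 0.079). LAMA5 (ENSSSCG00000032761; chr17:61698370-61747795) measured 0.549, 0.899 and 0.318 FPKM in WT and 1.27, 2.88 and 1.19 FPKM in knock-in positive libraries. These groups did not overlap either, at 0.77 ± 0.25 (95% interval 0.20 to 1.35, limma adjusted p = 0.095). Without knock-in positive library 2 the LAMA5 value was 0.51 ± 0.18 (limma adjusted p = 0.20). With a pseudocount of 0.1 it was 1.43 ± 0.44 (limma adjusted p = 0.087). LAMA1, by contrast, overlapped between the groups, at 0.21 ± 0.13 (95% interval -0.089 to 0.50, limma adjusted p = 0.32).

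LAMC3 (ENSSSCG00000005710; chr1:271004423-271071223) had a log2 fold change close to that of LAMB1 but a much wider spread. It measured 9.83, 5.97 and 44.9 FPKM in WT and 26.6, 56.4 and 60.7 FPKM in knock-in positive libraries 1 to 3. WT library 3 lay inside the range of the knock-in positive libraries. The log2 fold change was 1.61 ± 0.66 (95% interval 0.059 to 3.15, limma adjusted p = 0.16). Without WT library 3 it was 2.41 ± 0.38 with a limma adjusted p of 0.022, and without WT library 2 it was 1.05 ± 0.63 with a limma adjusted p of 0.34, the ends of the range over the 6 fits that left out a library. Among the tested members WT library 3 was also the highest WT library for LAMA1, LAMB1, LAMB2, LAMC1, ITGA4, ITGA6, ITGA11, ITGB3 and ITGB5. For the remaining tested members, which were the majority, WT library 1 or 2 was the highest. The share over all genes was not computed.

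**Figure D3:**
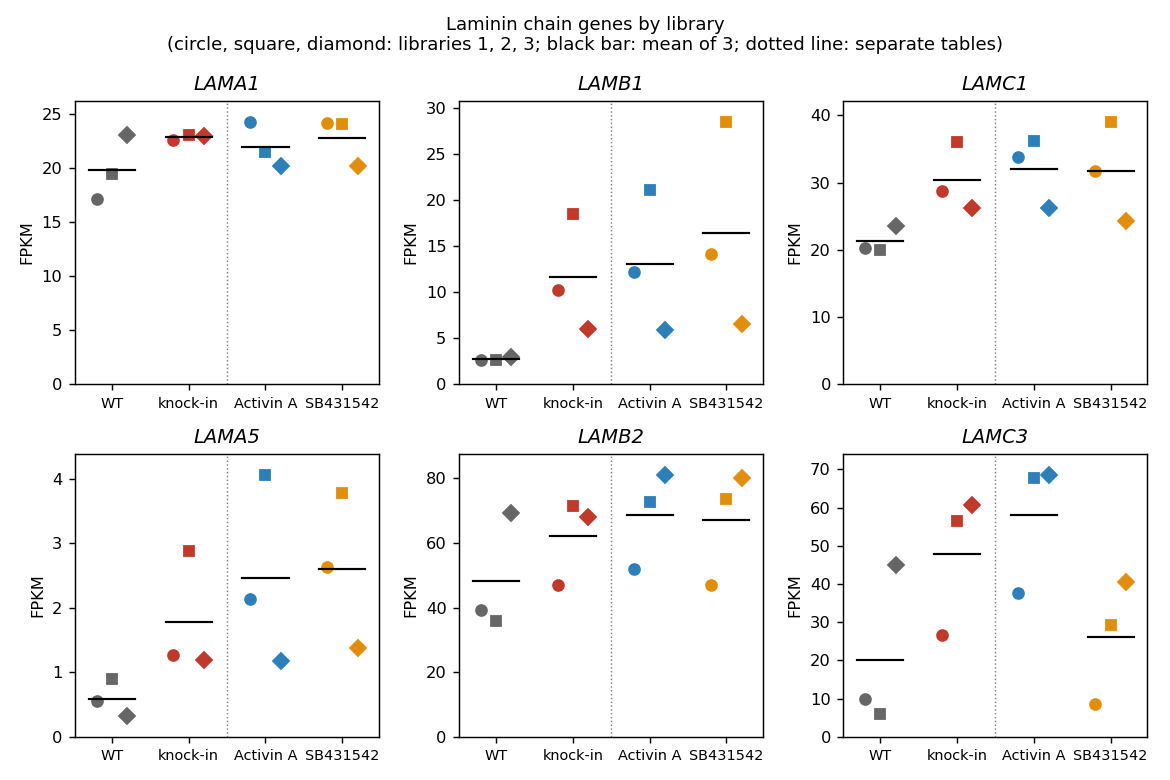
FPKM of 6 laminin chain genes by group; each symbol is a library, with circle, square and diamond for libraries 1, 2 and 3, the black bar is the mean of 3, and the dotted line separates libraries from separate tables. LAMB1 lay at 2.55 to 2.97 FPKM in WT and at 6.02 to 18.5 FPKM in knock-in positive libraries, and the square of library 2 was the highest LAMB1 and LAMA5 point in the knock-in positive, Activin A and SB431542 groups.

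No integrin subunit was called between these groups. ITGA4 (ENSSSCG00000016009; chr15:86942054-87028428), which binds fibronectin and VCAM1, measured 0.153, 0.144 and 0.2004 FPKM in WT and 0.589, 0.667 and 0.457 FPKM in knock-in positive libraries. The groups did not overlap and the ratio of the means was 3.44. On the log2(FPKM + 1) scale this was 0.43 ± 0.09 (95% interval 0.21 to 0.65, limma adjusted p = 0.039), which is under the fold threshold. With a pseudocount of 0.1 in place of 1 the value was 1.33 and ITGA4 was called, with a limma adjusted p of 0.039. The adjusted p exceeded 0.05 in all 6 fits that left out a library (0.051 to 0.14). With the adjusted p alone as the rule, 2 of 26 members were higher (LAMB1 and ITGA4) and 0 lower, while 4.88% of all genes were higher and 2.34% lower.

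No main receptor subunit passed the test. ITGB1 had a log2 fold change of 0.15 ± 0.11 (95% interval -0.098 to 0.40, limma adjusted p = 0.38). ITGA6 was at -0.42 ± 0.19 (95% interval -0.86 to 0.017, limma adjusted p = 0.19), and its groups overlapped through knock-in positive library 3. ITGAV measured 7.13, 8.37 and 7.29 FPKM in WT and 5.59, 5.22 and 6.59 FPKM in knock-in positive libraries, without overlap. Its log2 fold change was -0.34 ± 0.14 (95% interval -0.67 to -0.0081, limma adjusted p = 0.17). ITGB5 measured 2.86, 2.29 and 6.66 FPKM in WT and 7.34, 5.80 and 4.24 FPKM in knock-in positive libraries. At 0.54 ± 0.33 (95% interval -0.24 to 1.31, limma adjusted p = 0.32) its difference was within the spread, with WT library 3 above 2 of the knock-in positive libraries. Without WT library 3 it was 0.90 ± 0.23 (limma adjusted p = 0.057) and without WT library 2 it was 0.30 ± 0.34 (limma adjusted p = 0.61).

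In all, 9 of 26 tested members did not overlap between knock-in positive and WT libraries, 7 higher and 2 lower, and 35.7% of all genes tested did not overlap (19% higher, 16.7% lower). The share among the members was close to that background. The 7 were LAMB1, LAMC1, LAMA5, LAMA4, ITGA4, ITGB2 and ITGB1, and the 2 were ITGAV and ITGA10. ITGB2 measured 2.24, 1.78 and 1.69 FPKM in WT and 3.66, 3.07 and 3.12 FPKM in knock-in positive libraries. ITGA9, the closest relative of ITGA4 and a receptor of tenascin C, measured 0.354, 1.27 and 0.649 FPKM in WT and 2.44, 2.25 and 1.25 FPKM in knock-in positive libraries, where the lowest knock-in value was just under the highest WT value. With 3 libraries against 3 an exact permutation test cannot go below p = 0.1, the value it gives for each gene without overlap.

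Genes that work with the integrins and laminins were counted in the same fit. Of 12 tested partners in the basement membrane, 3 were called higher and 0 lower, against 1.61% and 0.706% of all tested genes, with a median log2 fold change of 0.41 against -0.0014 over all genes. NID1, the nidogen that joins laminin to collagen IV, was at 0.976 ± 0.397 FPKM in WT and 3.68 ± 0.369 FPKM in knock-in positive libraries (SD), a log2 fold change of 1.26 ± 0.18 (limma adjusted p = 0.015). COL18A1, the collagen that carries endostatin, was at 11.96 ± 7.85 and 78.9 ± 23.1 FPKM, a log2 fold change of 2.78 ± 0.46 (limma adjusted p = 0.021). PXDN, the enzyme that cross-links collagen IV, had a log2 fold change of 1.11 ± 0.24 (limma adjusted p = 0.039). Of 7 tested integrin ligands outside the basement membrane list, 1 was called, TNC (tenascin C), at 2.71 ± 0.42 (limma adjusted p = 0.018). Of 7 tested laminin receptors that are not integrins, 1 was called, BCAM, which binds laminin alpha 5, at 1.18 ± 0.24 (limma adjusted p = 0.033).

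On the inner side of the membrane, 3 of 24 tested integrin adaptors and regulators were called higher and 0 lower, read against the same background of 1.61% and 0.706%. VCL, the vinculin that ties talin to actin, was at 21.7 ± 2.55 FPKM in WT and 64.7 ± 10.5 FPKM in knock-in positive libraries (SD), a log2 fold change of 1.53 ± 0.15 (limma adjusted p = 0.0043). ZYX, the zyxin of mature adhesions, had a log2 fold change of 1.25 ± 0.13 (limma adjusted p = 0.0048). FLNA, the filamin that cross-links actin and binds beta tails, had 1.24 ± 0.21 (limma adjusted p = 0.022). The median over the adaptors was 0.39 with 21 of 24 above 0, against -0.0014 and 49.8% over all genes tested and 0.13 over the integrin and laminin genes, differences that were not tested. The actin-linked mural genes TAGLN and ACTA2, in the pericyte list above, were called higher in the same comparison. Of the 8 partners called between these groups, VCL and ZYX kept their calls whichever of the 6 libraries was omitted. The others (NID1, COL18A1, PXDN, TNC, BCAM and FLNA) were not called without knock-in positive library 1 or library 2 (limma adjusted p = 0.054 to 0.12). PXDN, TNC and BCAM were also not called without WT library 1 or 2, FLNA without WT library 1, COL18A1 without WT library 2 and PXDN without knock-in positive library 3 (limma adjusted p = 0.0505 to 0.096).

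The comparison of Activin A with SB431542 asks what changes when the Activin signal is raised or blocked. No member was called. By the rule above 0 of 26 tested members were called higher and 0 lower, against 0.0571% and 0.0357% of all 13999 tested genes (0.0929% in all), and at an unadjusted p under 0.05 limma gave 3 of 26 members (ITGB8, ITGAE and LAMC3) against 12.8% of all genes. The median log2 fold change was 0.013 over the members and -0.0040 over all genes tested, with 13 of 26 members above 0, against 49.1% of all genes. Same-numbered Activin A and SB431542 libraries deviated together from their group means, so a fit with the number as a block was also used. With the block 0 of 26 members were called higher and 1 lower, ITGB8, while 0.186% of all genes were called lower and 0.707% in either direction, and calls over all genes went from 13 to 99.

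**Figure D4:**
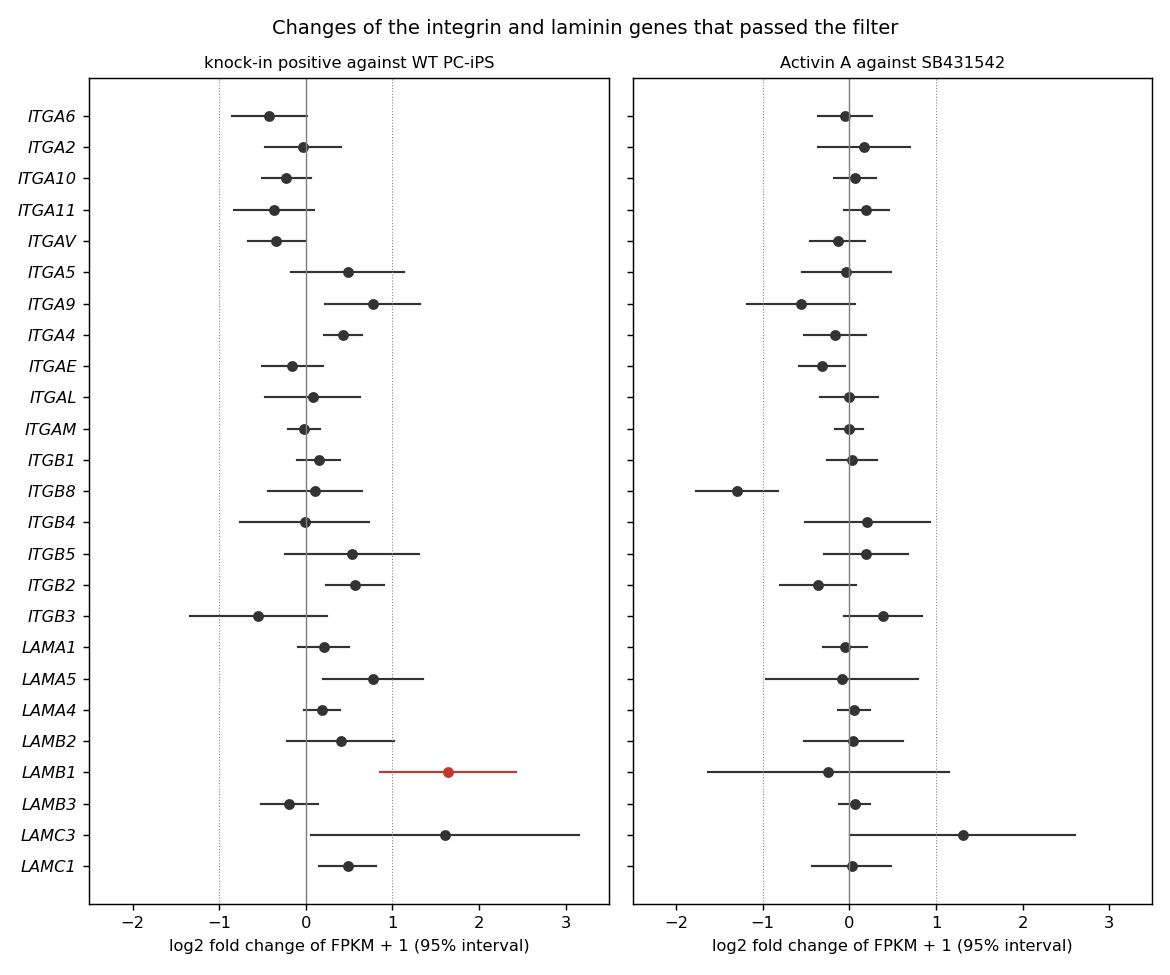
Difference in log2(FPKM + 1) for 25 of the 26 integrin and laminin genes that passed the filter, knock-in positive minus WT PC-iPS on the left and Activin A minus SB431542 on the right; points are limma estimates, lines their 95% intervals, dotted lines the fold threshold, and red marks a called gene. LAMB1 at 1.64 is the only called gene, and ITGB8 at -1.29 is the farthest below 0 in the right panel.

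ITGB8 (ENSSSCG00000015375; chr9:89342245-89450701), which with alpha V presents latent TGF-β for activation, measured 2.78, 4.43 and 3.84 FPKM in Activin A libraries 1 to 3 and 9.63, 8.61 and 13.3 FPKM in SB431542 libraries 1 to 3. All Activin A libraries were below all SB431542 libraries, and the SB431542 library was 3.46, 1.94 and 3.47 times the Activin A library of the same number. The log2 fold change was -1.29 ± 0.20 (SE, n = 3 against 3; 95% interval -1.77 to -0.82). The limma adjusted p was 0.093 without the block and 0.039 with it (SE 0.17), so the call depends on the pairing of libraries. Without each library in turn the value ran from -1.41 to -1.13, with an adjusted p of 0.15 to 0.26. In the other table ITGB8 measured 6.07, 11.4 and 7.45 FPKM in WT and 7.37, 8.34 and 10.8 FPKM in knock-in positive libraries, above the Activin A libraries in each case. ITGB8 gave 2.07 to 2.93% of the beta subunit FPKM with Activin A and 5.56 to 9.45% with SB431542. The 11 pericyte and mural genes summed to 335 to 448 FPKM with Activin A and 361 to 476 FPKM with SB431542, with 1 of 10 tested genes called lower (ACTA2), none under 0.1 FPKM throughout and TAGLN at 81.9 to 89.7% of the sum. Without TAGLN they summed to 46.3 to 53.7 FPKM with Activin A and 62.9 to 65.2 FPKM with SB431542, without overlap. Of the 10 tested genes of this list 3 had a fold change above 0. The 10 trophectoderm and epithelium genes summed to 69.9 to 462 FPKM with Activin A and 107 to 940 FPKM with SB431542, with 0 of 7 tested genes called and CDX2 at 0 in every library. KRT8 made up 50.5 to 72.4% of this sum with Activin A and 84.6 to 91.2% with SB431542. Without KRT8 the list summed to 34.6 to 127 FPKM with Activin A and 16.5 to 105 FPKM with SB431542. Of its 7 tested genes 5 had a fold change above 0. The part of such cells in the ITGB8 values was not tested.

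LAMC3 measured 37.6, 67.8 and 68.7 FPKM in Activin A libraries 1 to 3 and 8.61, 29.4 and 40.6 FPKM in SB431542 libraries 1 to 3. It was higher with Activin A at each number, by 4.36, 2.31 and 1.69 times, while the groups overlapped because SB431542 library 3 was above Activin A library 1. The log2 fold change was 1.31 ± 0.55 (95% interval 0.0064 to 2.61) with a limma adjusted p of 0.39. Over the fits without the block and with a library omitted it ran from 0.68, without SB431542 library 1, to 1.74 (limma adjusted p 0.30 to 0.59). With the block the interval was 0.69 to 1.93 and the limma adjusted p 0.065. The list of 10 fibroblast genes summed to 50.3 to 75.4 FPKM with Activin A and 15.7 to 23.8 FPKM with SB431542, with 0 of 7 tested genes called and FAP at 0 in every library. Of the 7 tested genes of that list 4 had a fold change above 0. The order of numbers differed within the list, with COL3A1 at 6.57, 7.47 and 42.9 FPKM, COL1A2 at 21.3, 11.2 and 12.7 FPKM and DCN at 14.4, 25.2 and 11.5 FPKM in Activin A libraries 1 to 3. The primitive endoderm genes other than SPARC summed to 18.8 to 23.3 FPKM with Activin A and 8.71 to 15.5 FPKM with SB431542, again mostly GATA6 (18.0 to 22.8 FPKM and 7.37 to 15.04 FPKM), with 0 of 4 tested genes called by limma. The part of such cells in the LAMC3 values was not tested.

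Among the other laminin chains and main receptors no gene was called between the treatments, with or without the block. Without the block the intervals of LAMB1 and LAMA5 were wide. LAMB1 measured 12.2, 21.1 and 5.91 FPKM with Activin A and 14.1, 28.5 and 6.49 FPKM with SB431542, with a wider range between numbers than between treatments. Its log2 fold change was -0.24 ± 0.58 (95% interval -1.64 to 1.15, limma adjusted p = 0.89). With the block the interval was -0.46 to -0.023 and the limma adjusted p 0.18, and LAMB1 was lower with Activin A at each of the 3 numbers (0.864, 0.741 and 0.911 times the SB431542 value). LAMC1 measured 33.8, 36.2 and 26.2 FPKM with Activin A and 31.7, 39.1 and 24.3 FPKM with SB431542, at 0.03 ± 0.19 (95% interval -0.43 to 0.48, limma adjusted p = 0.97). LAMA5 measured 2.14, 4.06 and 1.17 FPKM with Activin A and 2.63, 3.78 and 1.38 FPKM with SB431542, at -0.09 ± 0.37 (95% interval -0.96 to 0.79, limma adjusted p = 0.95). With the block the 95% intervals were -0.34 to 0.17 for LAMA5 and -0.14 to 0.20 for LAMC1. For LAMA1 the value was -0.05 ± 0.11 (95% interval -0.30 to 0.21, limma adjusted p = 0.88).

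For ITGB1 the log2 fold change was 0.03 ± 0.12 (95% interval -0.26 to 0.32, limma adjusted p = 0.94), and for ITGA6 it was -0.05 ± 0.13 (95% interval -0.36 to 0.26, limma adjusted p = 0.89). ITGAV measured 5.66, 4.76 and 5.07 FPKM with Activin A and 5.96, 4.83 and 6.57 FPKM with SB431542, at -0.13 ± 0.13 (95% interval -0.45 to 0.18, limma adjusted p = 0.70). ITGB5 measured 7.40, 5.18 and 5.49 FPKM with Activin A and 6.91, 4.21 and 4.47 FPKM with SB431542, at 0.19 ± 0.20 (95% interval -0.29 to 0.68, limma adjusted p = 0.72). In each of these 4 genes the groups overlapped.

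Without overlap between Activin A and SB431542 were 2 of 26 tested members, both lower with Activin A, against 20% of all genes (9.19% higher, 10.8% lower). They were ITGB8 and ITGAE, the latter at 1.74 ± 0.0987 FPKM with Activin A and 2.42 ± 0.322 FPKM with SB431542 (SD). Compared number by number, 7 of 26 members were higher with Activin A in 3 of 3 numbers and 7 were lower in 3 of 3, against 23.7% and 25.2% of all genes tested. The 7 higher were LAMC3, ITGB3, ITGB4, ITGB5, ITGA2, ITGA11 and LAMB3. The 7 lower were ITGB8, ITGA9, ITGA4, ITGB2, ITGAE, ITGAV and LAMB1. ITGB3 was 6.64, 2.98 and 3.99 times as high with Activin A, at 0.696, 0.0454 and 0.639 FPKM against 0.105, 0.0152 and 0.160 FPKM. ITGA9 was 2.10, 1.65 and 1.65 times as high with SB431542, at 3.65, 3.10 and 1.55 FPKM against 1.73, 1.88 and 0.936 FPKM.

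Among the genes that work with integrins and laminins, VCL was the one called between the treatments, and it was lower with Activin A. It stood at 34.0 ± 6.87 FPKM with Activin A and 93.3 ± 7.61 FPKM with SB431542 (SD), a log2 fold change of -1.45 ± 0.16 (limma adjusted p = 0.042, and 0.014 with the block). Without each library in turn the value ran from -1.55 to -1.28 and the limma adjusted p from 0.059 to 0.21, so the call was lost each time. Of 23 tested adaptors 1 was thus called lower and 0 higher, against 0.0357% and 0.0571% of all genes. The median log2 fold change over the adaptors was -0.13 with 8 of 23 above 0, against -0.0040 and 49.1% over all genes tested. The adaptor list, VCL included, summed to 699 to 715 FPKM with Activin A and 845 to 960 FPKM with SB431542, without overlap. These differences were not tested. Of 13 tested basement membrane partners, 7 other ligands and 7 other laminin receptors 0 were called by limma, with or without the block.

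The order of library numbers was compared across groups. The labels do not say what a number stands for in the treated libraries. In the knock-in positive, Activin A and SB431542 groups, 14 of 26 members (53.8%) had their highest value at the same library number in all 3 groups, and 38.0% of 13696 genes tested in both tables did. The same order of all 3 numbers in these groups was found for 8 of 26 members (30.8%) and for 18.8% of genes. The 8 were LAMB1, LAMA5, LAMC1, LAMC3, ITGA4, ITGA2, ITGAL and ITGB4. The order was number 3 lowest and number 2 highest for LAMB1, LAMA5, LAMC1, ITGA4 and ITGAL, which places the 3 chain genes of laminin-511 in the same order. For LAMC3 and ITGB4 number 1 was lowest and number 3 highest. ITGB4 measured 4.58, 5.996 and 11.6 FPKM in knock-in positive, 5.99, 7.59 and 12.1 FPKM in Activin A and 4.81, 7.09 and 9.85 FPKM in SB431542 libraries 1 to 3. KRT8 of the epithelium list was highest at number 2 and lowest at number 3 in the same 3 groups (35.3 to 835 FPKM), and its part in the order of LAMB1 was not tested. These shares were given as a description, since the genes of a library share its RNA and are not independent.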

How the data were processed

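RNA-Seq expression was taken as the FPKM values the authors deposited, 1 table holding the WT PC-iPS and knock-in positive libraries and another the treated libraries. Before deposit the authors removed adaptors with Trim Galore, used HISAT2 to align to Ssc11.1 (version 2.0.4 in the submitters' processing notes) and computed FPKM with StringTie 1.3.3 and an Ensembl annotation. StringTie estimates share reads between overlapping transcripts, and total depth cannot be read from FPKM. The authors' own fold changes and p-values, from featureCounts and DESeq2, were not used, and no read counts were used here.

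The 34 genes were found by symbol, and their coordinates are from RefSeq's annotation of Sscrofa11.1, matched by symbol for 34 of 34. Counts over the members include 1 gene that is not reported here. Members and gene lists were chosen with earlier results of these data known. The test covered genes that reached 0.1 FPKM in no fewer than 3 of the 6 libraries and was run on log2(FPKM + 1) with limma 3.58.1 (variance trend, two-sided) in R 4.3.3, within each table, with Benjamini-Hochberg adjustment over all tested genes. Calls needed an adjusted p no higher than 0.05 and a log2 fold change of 1 or more in size. Exact permutation tests of single genes were two-sided. Intervals are limma's 95% intervals.

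Fold changes are printed for members that met either threshold, and in both comparisons for ITGB1, ITGA6, ITGAV, ITGB5, LAMA1, LAMA5, LAMB1 and LAMC1. That of ITGA9, which met neither, is also printed between knock-in positive and WT cells. Partner genes were named when called. Libraries carry numbers 1 to 3 in the labels. The deviations of same-numbered Activin A and SB431542 libraries from their group means correlated at 0.40 to 0.59 across 13999 genes. Those of other pairs correlated at -0.50 to -0.15. The numbers were treated as pairs only in the fit with the block. The main fit did not pair them, nor did any p-value or interval printed without mention of the block. Alternatives were TPM, median-ratio scaling, a pseudocount of 0.1, a filter of 1 FPKM or none, no variance trend, the replicate number as a block, the adjusted p alone and leaving out each library. Refitting the partner genes with the block and without each library was chosen after seeing the data. The fitting was tested on simulated data. Levels were tabulated with Python 3.11.15 and pandas 2.3.3, and figures were drawn with matplotlib 3.10.9. Sequences were not analysed here.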

Additional observations from a re-analysis of the deposited data

How the results depend on the processing

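The count of integrin and laminin genes called higher in knock-in positive cells was 1 and depended on the settings. It was 2 with a pseudocount of 0.1 and 2 with the adjusted p alone (LAMB1 and ITGA4 in both), 0 with no filter on low values (limma adjusted p of LAMB1 0.067), and 0 to 2 when a library was left out. Over the alternatives the limma adjusted p of LAMB1 ran from 0.019 to 0.11. The count of members called lower was 0 under each alternative. For Activin A against SB431542 the count called lower was 0 and became 1, ITGB8, with the replicate block, and the count called higher was 0 throughout.

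With the replicate number as a block, no member was called between knock-in positive and WT cells (count 0, LAMB1 limma adjusted p = 0.060), but these groups share only a number, with deviations of same-numbered libraries correlating at -0.018 to 0.094. Of the same-numbered libraries only those numbered 3 correlated best with each other (0.094). The highest correlation joined different numbers, knock-in positive library 1 and WT library 2 (0.18). The block changed no other call of a member than LAMB1 and ITGB8. Between knock-in positive and WT cells it left 1 of 3 calls among the basement membrane partners (NID1), 0 of 1 among the other ligands, 0 of 1 among the other laminin receptors and 3 of 3 among the adaptors.

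Some named members that were not called between Activin A and SB431542 changed sign when 1 library was left out of the fit without the block, which also leaves 1 library of that number unpaired. Their log2 fold changes ran from -0.18 to 0.019 for ITGA6, -0.062 to 0.13 for ITGB1, -0.13 to 0.0064 for LAMA1, -0.40 to 0.21 for LAMA5, -0.74 to 0.25 for LAMB1 and -0.14 to 0.19 for LAMC1. ITGAV (-0.24 to -0.051) and ITGB5 (0.058 to 0.38) kept their sign in these fits. With the block and all libraries LAMB1 was at -0.24 (95% interval -0.46 to -0.023). Calls over all genes between knock-in positive and WT cells were 225 higher and 99 lower. They became 346 and 192 with a pseudocount of 0.1, 684 and 328 with the adjusted p alone, and 117 to 303 and 28 to 143 without 1 library. Lower calls were also 42 with no filter, 156 with TPM and 60 with the block. Between the treatments 8 higher and 5 lower calls became 73 and 26 with the block, 0 to 4 and 0 to 1 without 1 library, 3 and 2 with no filter, and 2 and 3 with a filter of 1 FPKM. Higher calls were also 3 without the variance trend and 13 with the adjusted p alone. The cause of these changes was not tested beyond what each setting alters. Depth is unknown, so values near 0.1 FPKM have no counting interval.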
